A study of Homo sapiens with 16 samples.

Results

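The 10 genes described here are long non-coding RNAs (lncRNAs) whose introns carry small nucleolar RNAs (snoRNAs), namely SNHG1, SNHG5, SNHG6, SNHG7, SNHG8, SNHG12, SNHG15, SNHG16, GAS5 and ZFAS1. They were taken by gene symbol from the deposited gene tables, which made 10 of the 60623 genes listed. All 10 were found once by symbol and all 10 were read in at least 1 library. The libraries came from Caco-2, a human colorectal adenocarcinoma line used as a model of the gut lining, and HepG2, a human hepatoma line used as a model of hepatocytes, each grown in a chamber of a microfluidic chip. Each line was either mono-cultured or co-cultured with the other line under shared medium, and received either no free fatty acids (FFAs) or FFAs at 1 mM in total, a mixture of palmitic and oleic acid. This gave 8 groups of 2 libraries, 16 in all, sequenced as cDNA of polyadenylated RNA on the Nanopore platform.

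Each group is a single cell line on a chip, so it stands for that line and not for gut or liver tissue. The labels place sampling 1 day after FFA addition whereas the study's methods describe a longer exposure, so the length of treatment is not settled here. The study's methods describe independent experiments for its RNA sequencing, but the labels do not say which libraries came from which experiment, and p-values measure the spread between the 2 libraries of each group. In every group the 2 libraries differed by more than counting noise (chi-square per degree of freedom of 1.37 to 2.42).

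Libraries held 49634 to 1657430 reads, and the co-cultured HepG2 group with FFAs was the shallowest, with 147096 and 49634 reads. One read was worth 0.603 to 20.1 CPM, the unit of every level below. CPM scales the reads of a gene to the same total in every library without regard to its length. Intervals and limits from read numbers cover counting error only. For 5 of 7 hepatocyte markers, all but APOA1 and TTR, the lowest HepG2 library was above the highest Caco-2 library. Of 7 intestinal markers only CDH17 separated the lines in the opposite sense, at 18.5 to 49.5 CPM in Caco-2 and 0 in HepG2. The intestinal regulator CDX1 was listed at 0 in all 16 libraries, and CDX2, LGALS4 and KRT20 did not exceed 6.43 CPM, so most defining gut markers were at or near 0 in the Caco-2 libraries.

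SnoRNAs guide the chemical modification of ribosomal RNA, and most human ones are cut from the introns of a host transcript after splicing. In the hosts described here the introns carry the snoRNAs, and the spliced exons encode no known conserved protein and are generally short-lived because translating ribosomes deliver them to nonsense-mediated decay. Many hosts begin with the pyrimidine-rich start (5′ terminal oligopyrimidine, 5′ TOP) that is typical of ribosomal protein mRNAs. GAS5 was named for accumulating when growth is arrested, ZFAS1 lies beside the start of ZNFX1, and several SNHG genes have been studied for their raised levels in tumours.

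On the GRCh38 assembly with GENCODE 44, all 10 genes were annotated as lncRNA. ZFAS1 lay at chr20:49278178-49299600 on the plus strand and GAS5 at chr1:173858559-173868882 on the minus strand. On the minus strand were also SNHG1 at chr11:62851978-62855953, SNHG5 at chr6:85650491-85678932, SNHG7 at chr9:136721366-136728184, SNHG12 at chr1:28578538-28583132 and SNHG15 at chr7:44983019-44986961. SNHG8 at chr4:118278703-118285316 and SNHG16 at chr17:76557727-76670985 were on the plus strand.

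The first 30 bases of the transcript are shown because the 5′ TOP start is the sequence feature the hosts are known to share with ribosomal protein genes. They were read from RefSeq promoter windows on GRCh38.p14, in which 8 of the 10 hosts matched by symbol and SNHG6 and SNHG15 did not. Capitals mark an unbroken run of C and T from the first base, where the first base is C.
ZFAS1, chr20:49278642-49278671, plus strand: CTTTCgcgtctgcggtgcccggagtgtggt
SNHG5, chr6:85678704-85678733, minus strand: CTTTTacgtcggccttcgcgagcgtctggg
SNHG12, chr1:28581844-28581873, minus strand: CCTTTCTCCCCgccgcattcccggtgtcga
SNHG7, chr9:136728155-136728184, minus strand: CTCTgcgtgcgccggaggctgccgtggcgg
SNHG1, chr11:62855856-62855885, minus strand: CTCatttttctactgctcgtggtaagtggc
SNHG8, chr4:118278762-118278791, plus strand: Cacattcgggaagcgtcgggattaggtgaa
SNHG16, chr17:76557764-76557793, plus strand: gcgttcttttcgaggtcggccgcgtggctg
GAS5, chr1:173869016-173869045, minus strand: agatgtgtttattttggagcctacaccagc

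A start with C and a run of at least 5 pyrimidines was present in ZFAS1, SNHG5 and SNHG12, that is in 3 of 8 hosts (37.5%). The same letters began 46 of 77 cytosolic ribosomal protein genes (59.7%), 4 of 17 other snoRNA host non-coding genes (23.5%) and 1429 of all 35116 promoter windows (4.07%). The GAS5 window began upstream of the gene's 5′ end in GENCODE 44, so its letters come from another annotated start. Only the SNHG7 window began at the GENCODE 5′ end, and the others began inside the gene. The farthest were SNHG12 (chr1:28581873 against 28583132) and ZFAS1 (chr20:49278642 against 49278178). The count of hosts with the run therefore depends on the start used.

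Inside the spans and on the strand of 9 hosts lay 26 annotated snoRNA entries, with 7 in SNHG1, 5 in SNHG12 and 4 in SNHG7. There were 3 each in ZFAS1 and SNHG16, and 1 each in SNHG5, SNHG6, SNHG8 and SNHG15. Some entries overlap almost fully, so SNHG7 and SNHG12 hold fewer separate snoRNAs than entries. These are 2 for SNORA17B, 2 for SNORA16A, and SNORA17A with ENSG00000281808. The annotation used listed none inside GAS5, although GAS5 was chosen as a snoRNA host, so these counts may be incomplete. The snoRNAs of ZFAS1 and SNHG16 are shown because these hosts differed between the lines in opposite directions. The sequences were read from GRCh38. Capitals mark the C box letters TGATGA in the first 20 bases and the D box letters CTGA in the last 20 bases, which box C/D snoRNAs use to bind their core proteins.
SNORD12C in ZFAS1, chr20:49278940-49279028, plus strand: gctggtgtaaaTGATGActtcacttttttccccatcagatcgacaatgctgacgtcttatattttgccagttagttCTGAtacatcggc
SNORD12B in ZFAS1, chr20:49280319-49280409, plus strand: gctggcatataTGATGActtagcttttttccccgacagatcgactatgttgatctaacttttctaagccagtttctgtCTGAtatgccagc
SNORD12 in ZFAS1, chr20:49280683-49280772, plus strand: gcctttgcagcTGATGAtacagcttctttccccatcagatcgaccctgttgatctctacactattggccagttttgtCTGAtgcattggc
SNORD1C in SNHG16, chr17:76558791-76558868, plus strand: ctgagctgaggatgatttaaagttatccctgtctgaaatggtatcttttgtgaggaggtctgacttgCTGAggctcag
SNORD1B in SNHG16, chr17:76561109-76561192, plus strand: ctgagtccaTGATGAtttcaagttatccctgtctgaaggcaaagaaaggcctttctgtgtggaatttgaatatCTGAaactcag
SNORD1A in SNHG16, chr17:76561634-76561705, plus strand: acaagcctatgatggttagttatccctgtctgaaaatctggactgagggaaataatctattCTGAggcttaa

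Searched on the strand of the gene only, the D box letters were found in all 15 hosted SNORD genes examined and the C box letters in 8 of them, so both were present in 53.3%, against 62.6% of all 313 SNORD genes of the annotation. The embedded snoRNAs themselves were almost unread in these polyadenylated libraries. All 26 entries were listed, 5 had any read, and together they had 28 reads against 74748 for the 10 hosts. The 2 overlapping entries for SNORA17B had 1 read each, which may be the same read. Both entries for SNORA17B and SNORA24 were the snoRNAs whose mean reached 10 CPM in any group, and each owed this to 1 read in the library of 49634 reads. The levels below are therefore those of the host genes and say nothing of the amount of mature snoRNA. Whether the host reads came from spliced RNA was not examined.

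Together the 10 hosts took 0.873% to 1.26% of the reads of the Caco-2 libraries and 0.385% to 0.5004% of those of the HepG2 libraries, with no overlap between the lines. ZFAS1 and GAS5 accounted for 68.8% to 70.5% of the host reads in Caco-2 and for 42.7% to 50.6% in HepG2. In the same libraries cytosolic ribosomal protein genes took 28.0% to 31.7% of reads in Caco-2 and 18.5% to 25.4% in HepG2, and mitochondrial genes took 2.73% to 3.97% and 6.29% to 10.6%. After rescaling without mitochondrial, ribosomal RNA and snoRNA genes, the same 9 hosts were called as in the comparison that follows.

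**Figure D1:**
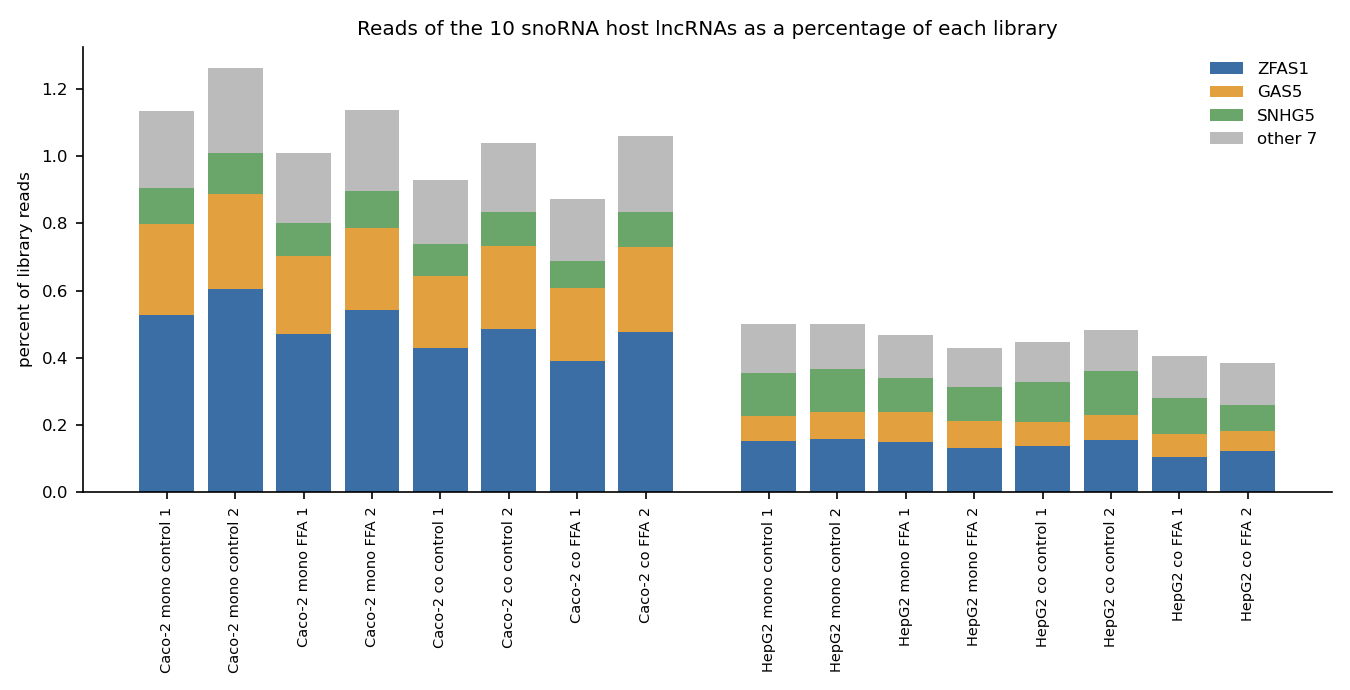
Reads of the 10 hosts as a percentage of all reads of each of 16 libraries, stacked as ZFAS1, GAS5, SNHG5 and the other 7. Every Caco-2 bar (0.873% to 1.26%) is higher than every HepG2 bar (0.385% to 0.5004%), while the SNHG5 segment is of like height in both lines.

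The first comparison asked how the lines differ. In HepG2, 8 hosts (ZFAS1, GAS5, SNHG6, SNHG8, SNHG1, SNHG7, SNHG12 and SNHG15) were lower than in Caco-2, SNHG16 was higher, and SNHG5 did not pass the test. Levels were compared as log2(CPM + 1) with limma over all 16 libraries and the 17544 genes averaging 1 CPM or more in some group, with Benjamini-Hochberg adjustment over all of them. An adjusted p under 0.05 was reached by 9 of 10 hosts (8 lower, 1 higher), and by 30.3% of all genes tested (17.9% lower, 12.5% higher). Among the 8543 genes averaging 10 CPM or more in some group, which are more often called, 49.7% passed (25.9% lower, 23.7% higher). The median host difference was -1.41 against -0.16 over all genes on the log2 scale. The libraries of the lines did not overlap for 6 of 10 hosts, which held for 10.3% of all genes tested. This share includes genes of low level, and the share among genes averaging 10 CPM or more was not examined.

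**Figure D2:**
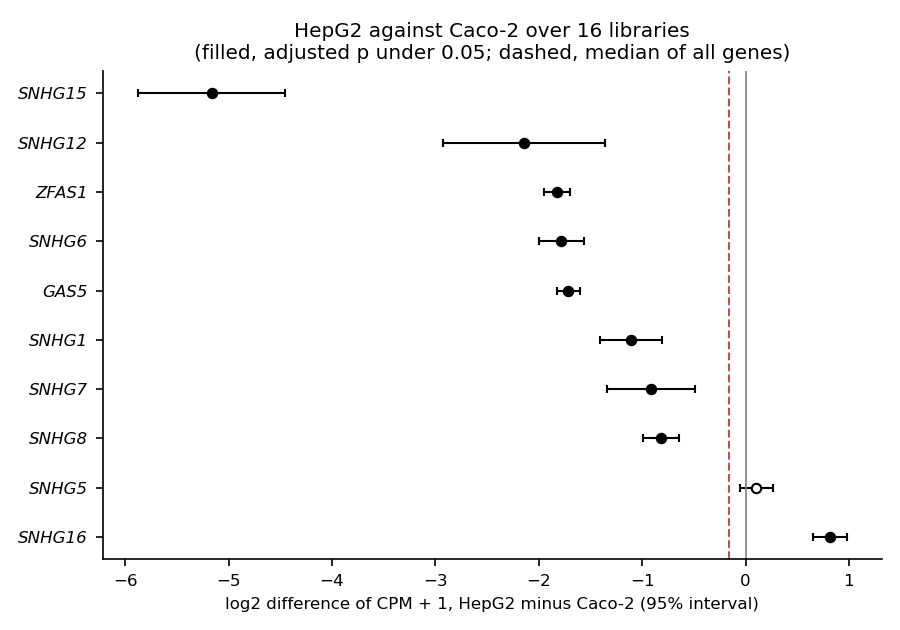
Difference in log2(CPM + 1) between HepG2 and Caco-2 for each host, averaged over the 4 culture and FFA conditions of 16 libraries, with 95% intervals. Filled points passed an adjusted p of 0.05 and the dashed line is the median of all genes (-0.16). On the plot 8 hosts lie to the left of 0, SNHG16 lies to the right, and the interval of SNHG5 includes 0.

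ZFAS1, a host of SNORD12 family snoRNAs, was read at 3899 to 6036 CPM in Caco-2 with a median of 4811, and at 1054 to 1573 CPM in HepG2 with a median of 1429.9 (n = 8 libraries each). Every Caco-2 library was above every HepG2 library. The fitted difference was -1.82 (SE 0.059) on the log2 scale, a level 3.54-fold lower in HepG2 (limma, adjusted p = 2.46e-11).

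GAS5, the growth-arrest transcript, was read at 2147 to 2828 CPM in Caco-2 (median 2472) and at 604 to 872 CPM in HepG2 (median 749). The ranges lay far apart, and the lowest Caco-2 library was above the highest HepG2 library by more than the whole range of either line. It was 3.28-fold lower in HepG2, with a log2 difference of -1.71 (SE 0.052, limma, adjusted p = 1.27e-11), the smallest p of the 10 hosts.

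SNHG6, at chr8:66920561-66926398 on the minus strand, ranged from 722 to 966 CPM in Caco-2 (median 819) and from 160.1 to 283 CPM in HepG2 (median 270.2). Its log2 difference of -1.78 (SE 0.10, limma, adjusted p = 8.64e-09) was close to those of ZFAS1 and GAS5, and its libraries likewise did not overlap. Within each of the 4 matched conditions the Caco-2 mean was 2.83 to 4.25 times the HepG2 mean for SNHG6, 3.15 to 3.83 times for ZFAS1 and 2.87 to 3.66 times for GAS5.

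SNHG15 was the host with the lowest HepG2 level. It had 201 reads over the 8 Caco-2 libraries, at 27.4 to 51.5 CPM (median 43.4), and 1 read over the 8 HepG2 libraries, in a mono-cultured library without FFAs at 2.32 CPM. The pooled reads gave a Caco-2 to HepG2 ratio of 204, with an exact 95% interval of 36.1 to 8085. In the deepest HepG2 library, of 1657430 reads, a count of 0 has an exact 95% upper limit of 2.23 CPM. In the shallowest HepG2 library that limit is 74.3 CPM, which is above the Caco-2 level. The fitted log2 difference of -5.16 (SE 0.33, limma, adjusted p = 3.03e-08) depends on the constant added before taking logs and is no bound.

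SNHG12 was also low in HepG2, at 0 to 32.5 CPM (69 reads in all), against 27.7 to 64.3 CPM in Caco-2 (223 reads). The lines overlapped because of 1 mono-cultured HepG2 library without FFAs, at 32.5 CPM. The log2 difference was -2.14 (SE 0.37, limma, adjusted p = 0.000439). In Caco-2 and HepG2 respectively, SNHG1, with 7 annotated snoRNA entries, had medians of 243 and 102 CPM, SNHG8 of 660.1 and 359.8 CPM, and SNHG7 of 73.7 and 35.6 CPM.

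The averaged differences of these 3 hosts were smaller, between 1.76-fold and 2.16-fold lower in HepG2. The Caco-2 mean was 1.49 to 1.97 times the HepG2 mean for SNHG8, 1.42 to 2.75 times for SNHG1 and 0.993 to 2.58 times for SNHG7 across the 4 conditions. For SNHG1 and SNHG7 the lowest ratio was that in co-culture with FFAs, where SNHG7 averaged 56.9 CPM in Caco-2 and 57.3 CPM in HepG2. SNHG8 did not overlap, with 491 CPM in the lowest Caco-2 and 433 CPM in the highest HepG2 library (log2 difference -0.82, SE 0.081, limma, adjusted p = 3.01e-06). SNHG1 overlapped through a single HepG2 library of 49634 reads, in which 201 CPM stood for 10 reads (log2 difference -1.11, SE 0.14, limma, adjusted p = 2.85e-05). SNHG7 overlapped through the same library, where 80.6 CPM stood for 4 reads (log2 difference -0.91, SE 0.20, limma, adjusted p = 0.00275).

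SNHG16 went against the other called hosts. It was read at 250.4 to 307 CPM in Caco-2 (median 284) and at 453 to 589.6 CPM in HepG2 (median 473), again with no overlap. It was 1.76-fold higher in HepG2, with a log2 difference of 0.82 (SE 0.074, limma, adjusted p = 1.21e-06), and the HepG2 mean was 1.59 to 1.98 times the Caco-2 mean in each of the 4 conditions.

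SNHG5, the host of SNORD50B, did not separate the lines. It ranged from 814 to 1239 CPM in Caco-2 (median 1036) and from 786 to 1300.3 CPM in HepG2 (median 1125). The log2 difference was 0.11 (95% interval -0.05 to 0.26, limma, adjusted p = 0.306). Its direction depended on scaling, with -0.03 under median-ratio rescaling and 0.19 under quantile normalization, where it passed the test (adjusted p = 0.0478). Of the 3 hosts with a pyrimidine-rich start shown above, ZFAS1 and SNHG12 were thus lower in HepG2 and SNHG5 was not called.

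**Figure D3:**
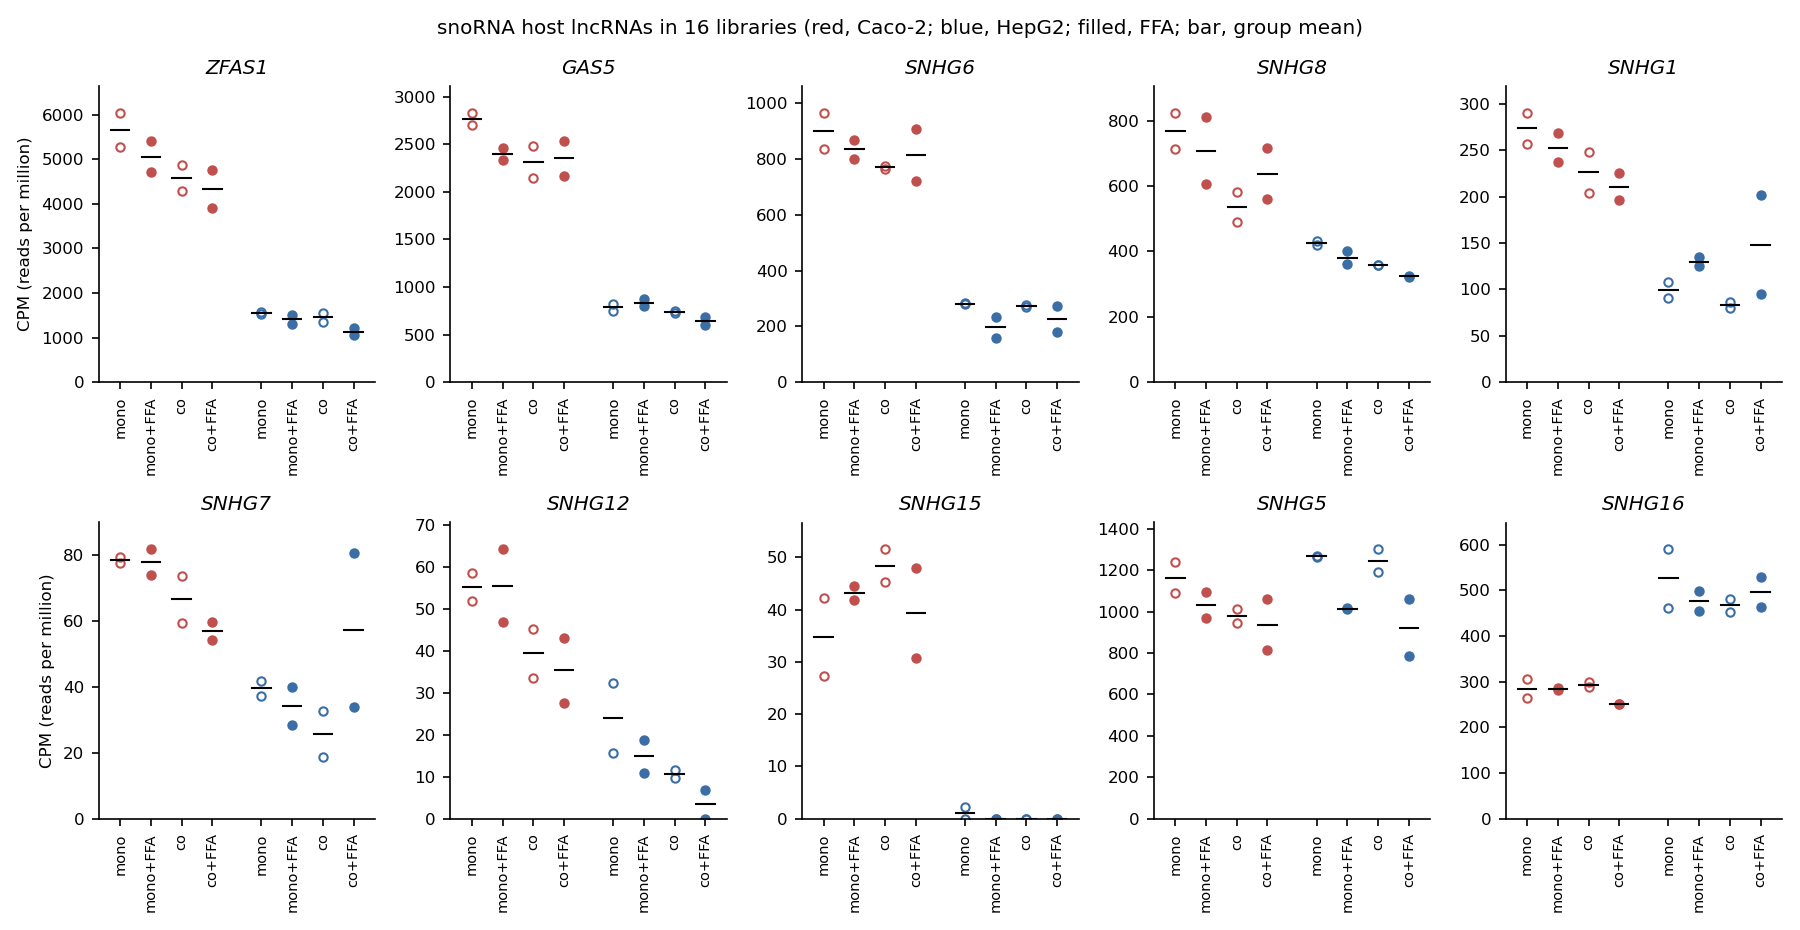
CPM of each host in all 16 libraries (Caco-2 red, HepG2 blue, filled points with FFAs, bars the mean of 2 libraries), on linear axes that start at 0 and differ between panels. SNHG16 is higher in every HepG2 library (453 CPM or more) than in any Caco-2 library (307 CPM or less), ZFAS1, GAS5, SNHG6, SNHG8 and SNHG15 are lower in every HepG2 library, and SNHG5 overlaps.

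When the 8 groups were placed in order of their mean for each host, most neighbours did not differ beyond their spread, taken as the sum of their standard deviations. For ZFAS1, 2 of 7 gaps were larger than that, 1 between the lines and 1 above the co-cultured HepG2 group with FFAs. For GAS5 and SNHG8 it was 3 of 7 gaps, for SNHG6, SNHG12 and SNHG16 it was 2, for SNHG1, SNHG7 and SNHG15 it was 1, and for SNHG5 it was 0. In ZFAS1, GAS5, SNHG6, SNHG8, SNHG15 and SNHG16 one of the larger gaps was that between the lines. SNHG5 instead had both HepG2 groups without FFAs at the top of its order, at 1267 and 1245 CPM, and the co-cultured HepG2 group with FFAs at the bottom, at 923 CPM.

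Genes of the same pathway were compared between the lines in the same fit. The counts below stand beside 30.3% of all genes passing, and 49.7% of those averaging 10 CPM or more in some group. Whether a list passed more often than these shares was not tested. Of 19 other snoRNA host non-coding genes tested, 5 were higher and 5 were lower in HepG2, with a median log2 difference of 0.45. Among the latter were SNHG29 (-1.58, SE 0.042, limma, adjusted p = 3.29e-12) and SNHG32 (-1.87, SE 0.060, limma, adjusted p = 2.03e-11). Of 17 snoRNP proteins, which package snoRNAs, 8 were higher and 1 was lower in HepG2. NOP56, a core box C/D protein whose own gene hosts snoRNAs, differed by 2.40 on the log2 scale (limma, adjusted p = 3.80e-10), and SNU13, which binds the box C/D core, by 0.74 (limma, adjusted p = 1.10e-06).

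Of 77 cytosolic ribosomal protein genes, 57 were lower and 11 were higher in HepG2, with a median log2 difference of -0.34. RPS3, a small-subunit protein whose gene also hosts snoRNAs, was lower by -1.57 on the log2 scale and RPS25, another small-subunit protein, by -1.34 (limma, adjusted p = 6.24e-13 and 9.28e-11). Ribosomal protein genes share reads with many processed pseudogenes, so single values are uncertain. Of 14 nonsense-mediated decay factors 3 were higher and 1 was lower in HepG2. These were led by UPF2, a bridging factor of the pathway (-1.27, limma, adjusted p = 1.55e-06), and UPF3A, its partner (1.73, limma, adjusted p = 1.13e-05). Of 14 ATF4 and CHOP stress genes 6 were higher and 5 lower, among them PSAT1, of serine synthesis, at 3.78 and PPP1R15A, which reverses eIF2 phosphorylation, at -2.81 (log2, limma, adjusted p = 7.29e-10 and 7.48e-09).

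The genes whose log2(CPM + 1) followed that of the summed hosts most closely over the 16 libraries, among 2020 genes averaging 50 CPM or more, were SNHG32 (Pearson r = 0.988, Spearman rho = 0.921), AL671762.1 (r = 0.988, rho = 0.926) and RPL6P27 (r = 0.986, rho = 0.938). The 16 points form 2 clusters, one for each line, and within the lines r was 0.863 and 0.544 for SNHG32 in Caco-2 and HepG2 (n = 8 each). AL671762.1 had nearly the same values as SNHG32 (means of 1176 and 1183 CPM in Caco-2), and RPL6P27 is a pseudogene of a ribosomal protein gene, so neither can be told apart with certainty from its near copy. These correlations share libraries and depth and are given as description.

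Genes that overlap the hosts were little read, except TRNAU1AP when set beside SNHG12. Opposite-strand partners had 131 reads (TRNAU1AP, for SNHG12) and 20 reads (ZNFX1, for ZFAS1) over all 16 libraries. TRNAU1AP averaged 7.64 CPM in Caco-2 and 18.8 CPM in HepG2, against 46.5 and 13.2 CPM for SNHG12. It ends at chr1:28578545, whereas SNHG12 spans from 28578538. On the same strand, the gene ENSG00000271793 that overlaps SNHG5 had 38 reads and the entry ENSG00000274760 inside ZFAS1 had 32. Whether reads were counted by strand is not given in the sources used here. CPM is a share of the reads of a library, so the amount of host RNA per cell was not measured.

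The next comparisons asked whether FFAs or co-culture changed the hosts within a line, over 8 libraries of that line. No host passed an adjusted p of 0.05 by limma in any of the 8 contrasts of either line. In Caco-2, with 15454 genes tested, the share of all genes called was 0.00647% for FFAs in mono-culture, 0% for FFAs in co-culture and averaged and for the interaction, 0.0971% for co-culture without FFAs and with FFAs, 0.453% for co-culture averaged and 0.155% for differences among the 4 groups. In HepG2, with 14430 genes tested, it was 0.0762% for FFAs averaged and 0% for the other 7 contrasts. Counts at an unadjusted p and by the count model edgeR are given with each contrast below. The limma shares of all genes include genes of low level, which are less often called. For co-culture averaged in Caco-2, 4.97% of the 6481 genes averaging 10 CPM or more in some group were called by limma. Shares of genes whose libraries did not overlap are likewise over all genes tested, those of low level included.

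**Figure D4:**
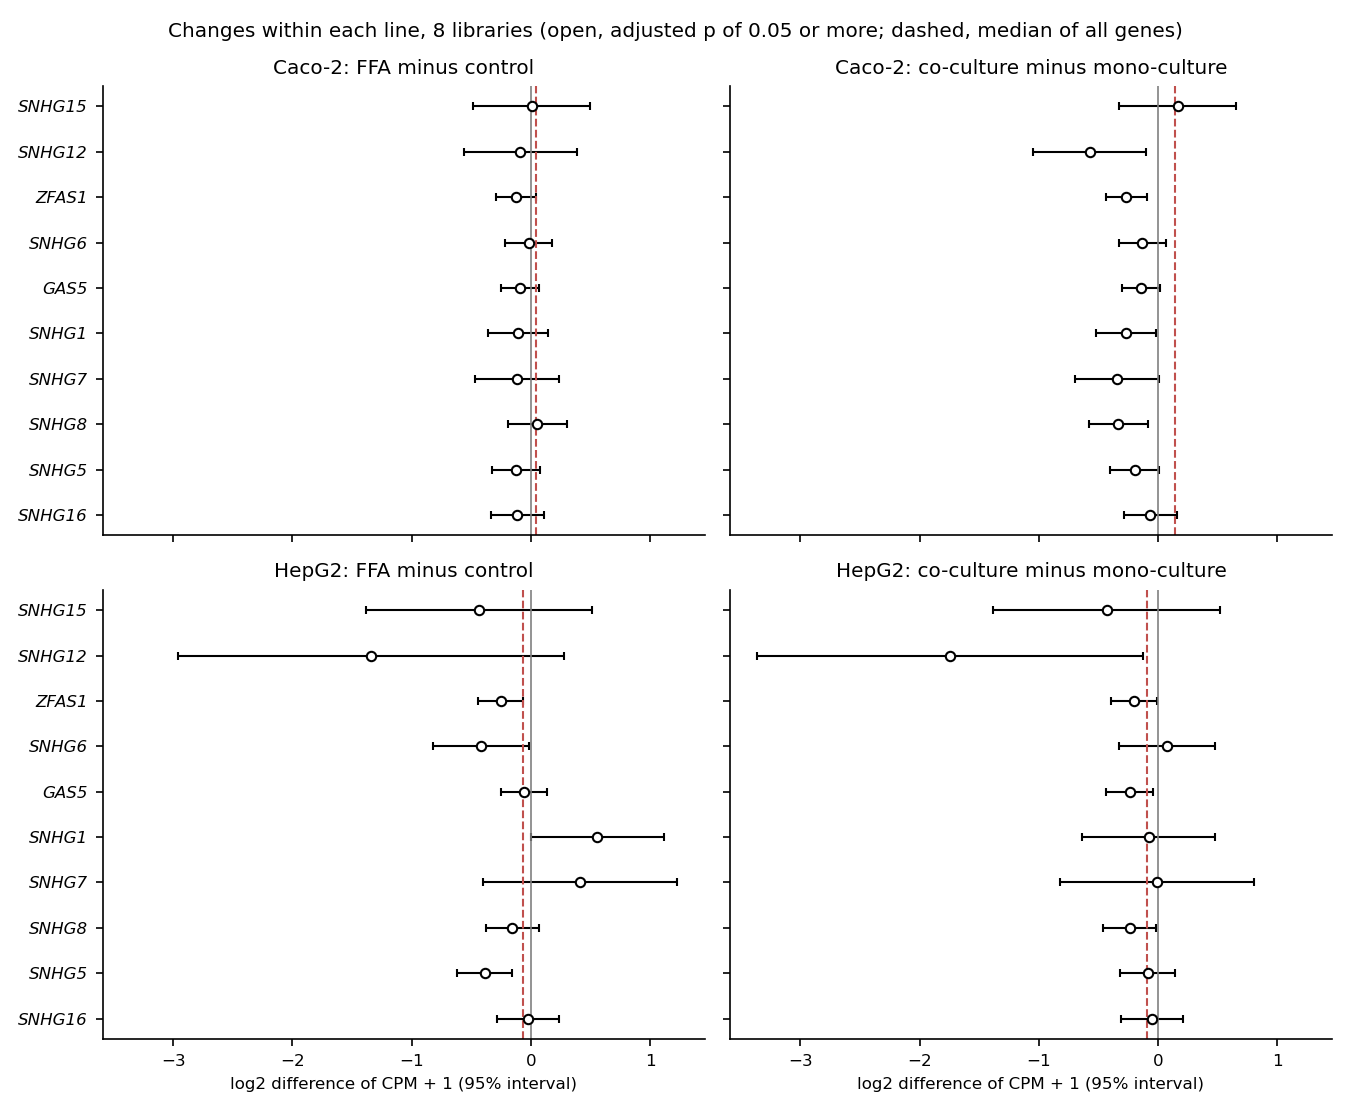
Difference in log2(CPM + 1) for each host with FFAs against without and in co-culture against mono-culture, averaged over the other factor, in Caco-2 and HepG2 (8 libraries each, 95% intervals, dashed line the median of all genes). All points are open since no host passed an adjusted p of 0.05, and the intervals of SNHG12, SNHG15, SNHG1 and SNHG7 in HepG2 are wide.

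In Caco-2, 9 of 10 hosts were lower in co-culture than in mono-culture averaged over FFA treatment, the exception being SNHG15, and the median difference was -0.23 against 0.14 over all genes (log2). None passed by limma in the fit to genes averaging 1 CPM or more in some group, without a term for replicate number. At an unadjusted limma p under 0.05 there were 4 hosts, all lower (ZFAS1, SNHG8, SNHG12 and SNHG1), and 11.8% of all genes (3.37% lower). In a fit to only the 6481 genes averaging 10 CPM or more in some group, 6 hosts passed that unadjusted p. So did 1269 of the 6481 genes (399 lower). ZFAS1 was the 1 host that also passed after adjustment in that fit (limma, adjusted p = 0.0192), where 4.97% of those genes did. By edgeR on recovered reads, 3 hosts passed, ZFAS1, SNHG8 and SNHG12, with adjusted p of 0.0179, 0.0196 and 0.0457, where 8.47% of all genes passed (4.33% lower).

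ZFAS1 had 5274 and 6036 CPM in mono-culture, 4703 and 5409 CPM in mono-culture with FFAs, 4291 and 4861 CPM in co-culture, and 3899 and 4760.5 CPM in co-culture with FFAs. The mono-cultured libraries tended to be higher, but the ranges overlapped. Each co-cultured library was below the mono-cultured library of the same replicate number and treatment. The averaged difference was -0.27 (SE 0.079, limma, adjusted p = 0.184), the smallest p of the hosts in this contrast. With replicate number added to the fit as an alternative, ZFAS1 passed (limma, adjusted p = 0.00511). The labels do not say whether these numbers pair libraries.

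SNHG8 had 714 and 824 CPM in mono-culture, 606 and 809.9 CPM with FFAs added, 491 and 582 CPM in co-culture, and 559 and 716 CPM in co-culture with FFAs. Without FFAs, both co-cultured libraries were below both mono-cultured ones. That difference was -0.52 (SE 0.16, limma, adjusted p = 0.355; edgeR, adjusted p = 0.0319), and SNHG8 was the 1 host that passed by edgeR there, where 1.48% of all genes did. At an unadjusted limma p, 3 hosts passed in co-culture without FFAs (10.3% of all genes), and 0 passed in co-culture with FFAs (7.78%), where edgeR called 0 as well (3.85%).

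SNHG12 and SNHG7 were the hosts whose 4 co-cultured Caco-2 libraries were all below the 4 mono-cultured ones, 2 of 10 hosts, against 1.68% of all genes. SNHG12 ranged from 27.7 to 45.2 CPM in co-culture and from 47.0 to 64.3 CPM in mono-culture. SNHG7 ranged from 54.2 to 73.5 CPM and from 73.9 to 81.6 CPM. One read was worth 2.83 CPM in the co-cultured library with the highest level of both hosts, so these margins were narrow. Their averaged differences were -0.57 (SE 0.22) and -0.34 (SE 0.17), with adjusted p by limma of 0.344 and 0.438.

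Among the ribosomal protein genes, RPL13, of the large subunit, was lower in co-cultured Caco-2 (-0.39, SE 0.068, limma, adjusted p = 0.0235), and 69 of 77 lay below 0 with a median of -0.07. No other snoRNA host gene, snoRNP protein, decay factor or stress gene passed. Hepatocyte markers moved with co-culture in the same Caco-2 libraries. The summed CPM of the 7 markers was 7879 to 9140 in mono-culture and 10125 to 10765 in co-culture. Of the 7, 3 passed, among them AFP (0.97, limma, adjusted p = 0.00538) and TTR (0.58, limma, adjusted p = 0.0114). TTR did not separate the lines, at 752 to 1457 CPM in Caco-2 and 498 to 1047 CPM in HepG2. The 7 intestinal markers also summed higher, at 143 to 173 CPM in mono-culture and 196 to 260 CPM in co-culture. Of the 6 tested, TFF3 passed (0.82, limma, adjusted p = 0.0478) and 2 lay below 0. The part of HepG2 RNA in the co-culture differences of the hosts was not tested.

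With FFAs the Caco-2 hosts moved less. In the averaged contrast 8 of 10 were lower, the median difference was -0.10 against 0.04 over all genes, and the smallest p was that of ZFAS1 (-0.12, 95% interval -0.29 to 0.05, limma, adjusted p = 0.829). No host passed an unadjusted p of 0.05 in FFAs averaged (4.85% of all genes), FFAs in mono-culture (5.80%) or FFAs in co-culture (4.88%), or in the interaction (5.02%). By edgeR 0 hosts passed in these 4 contrasts, where 0.196%, 0.152%, 0.109% and 0.0435% of all genes did. The hosts with the smallest p were GAS5 in mono-culture (-0.20, SE 0.10, limma, adjusted p = 0.838), SNHG16 in co-culture (-0.22, SE 0.15, limma, adjusted p = 0.862) and SNHG8 for the interaction (0.37, SE 0.23, limma, adjusted p = 0.820). For co-culture with FFAs it was SNHG12 (-0.65, SE 0.31, limma, adjusted p = 0.656). Among the 4 Caco-2 groups 2 hosts passed an unadjusted p (8.17% of all genes), led by ZFAS1 (limma, adjusted p = 0.516), and 0 passed by edgeR (5.09%).

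In HepG2, 8 of 10 hosts were lower with FFAs than without, averaged over culture, the exceptions being SNHG1 and SNHG7. Of the 8, SNHG15 rested on 1 read, and SNHG16 (-0.02) and GAS5 (-0.05) lay close to 0. The median difference was -0.21 against -0.07 over all genes (log2). None passed by limma. At an unadjusted limma p under 0.05 there were 4 hosts, SNHG5, ZFAS1 and SNHG6 lower and SNHG1 higher, among 13.8% of all genes. By edgeR, which could test 8 of the 10 hosts here, SNHG5, SNHG6 and ZFAS1 passed, with adjusted p of 0.00151, 0.0282 and 0.00505, where 13.3% of all genes passed (8.36% lower). These FFA contrasts rest on 2 libraries of 147096 and 49634 reads for co-culture with FFAs.

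SNHG5 had 1265 and 1269.7 CPM in mono-culture, 1011 and 1015 CPM in mono-culture with FFAs, 1190.4 and 1300.3 CPM in co-culture, and 1061 and 786 CPM in co-culture with FFAs. All 4 libraries with FFAs were below all 4 without, which no other host showed and which held for 3.36% of all genes. The averaged difference was -0.38 (SE 0.10, limma, adjusted p = 0.193). The last value stood for 39 reads, and the size of the difference depended on this group. Leaving out co-culture FFA replicate 2, which holds those reads, gave -0.28 averaged (limma, adjusted p = 0.106) and -0.23 in co-culture (limma, adjusted p = 0.237), while leaving out co-culture FFA replicate 1 gave -0.49 (limma, adjusted p = 0.0146) and -0.66 (limma, adjusted p = 0.0114). Both settings leave 1 library in the group, which is then assumed to vary like the other groups.

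ZFAS1 had 1527 and 1573 CPM in mono-culture, 1501 and 1309.8 CPM in mono-culture with FFAs, 1359 and 1548 CPM in co-culture, and 1054 and 1209 CPM in co-culture with FFAs. The co-cultured libraries with FFAs were the lowest of the 8. The averaged FFA difference was -0.25 (SE 0.083, limma, adjusted p = 0.242), and within co-culture it was -0.36 (SE 0.12, limma, adjusted p = 0.249; edgeR, adjusted p = 0.0135).

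SNHG6, the third host passing by edgeR, had 283 and 281 CPM in mono-culture, 233 and 160.1 CPM with FFAs, 277 and 269 CPM in co-culture, and 272 and 181 CPM in co-culture with FFAs. In each culture 1 of the 2 libraries with FFAs was far lower than the other. The averaged difference was -0.42 (SE 0.18, limma, adjusted p = 0.353). SNHG1 moved the other way, from 90.5 and 108 CPM to 125 and 135 CPM in mono-culture and from 79.6 and 86.7 CPM to 95.2 and 201 CPM in co-culture, where the last 2 values stood for 14 and 10 reads (averaged difference 0.56, SE 0.24, limma, adjusted p = 0.362).

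Within co-cultured HepG2, 2 hosts, SNHG5 and ZFAS1, passed an unadjusted p for FFAs (15.9% of all genes) and both passed by edgeR (7.99%). SNHG5 had the smaller p, with a difference of -0.45 (SE 0.14, limma, adjusted p = 0.244). In mono-culture no host passed an unadjusted p (6.26% of all genes) or edgeR (0.744%), with SNHG5 first at -0.32 (SE 0.14, limma, adjusted p = 0.803). Among the 4 groups 2 hosts passed an unadjusted p (12.2%) and 2 passed by edgeR (8.76%), with ZFAS1 first (limma, adjusted p = 0.360). For the interaction it was 0 by both (6.94% and 0%), with SNHG7 first (1.27, SE 0.71, limma, adjusted p = 0.721).

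Beside these values, 70 of 77 ribosomal protein genes were below 0 with FFAs in HepG2, with a median of -0.27, and 3 passed, all lower. RPL34, of the large subunit, fell by 0.44 and RPLP2, of its stalk, by 0.42 on the log2 scale (limma, adjusted p = 0.0372 for both). Of 13 ATF4 and CHOP stress genes tested 2 rose, PSAT1 (1.25, limma, adjusted p = 0.0372) and HERPUD1, of endoplasmic reticulum protein degradation (1.73, limma, adjusted p = 0.0372), with a median of 0.88 over the list. None of the other snoRNA hosts (median -0.13), the snoRNP proteins (0.06) or the decay factors (-0.13) passed. With a library left out, 0 to 37 ribosomal protein genes and 0 to 8 stress genes passed. Both counts were 0 without mono-culture control replicate 1, co-culture control replicate 2 or co-culture FFA replicate 2, and highest without co-culture FFA replicate 1.

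Co-culture of HepG2 gave 9 of 10 hosts lower, with a median of -0.15 against -0.09 over all genes, and SNHG6 as the exception. Of the 9, SNHG15 again rested on 1 read and SNHG7 lay at -0.01. No host passed by limma or by edgeR (1.17% of all genes), while 4 of 10 passed an unadjusted p (GAS5, SNHG12, ZFAS1 and SNHG8, all lower) among 7.72% of all genes (3.85% lower). GAS5 had 752 and 822 CPM in mono-culture, 872 and 800.4 CPM in mono-culture with FFAs, 722 and 746 CPM in co-culture, and 679.8 and 604 CPM in co-culture with FFAs. All 4 co-cultured libraries were below all 4 mono-cultured ones for GAS5 and for SNHG8, 2 of 10 hosts, against 1.19% of all genes. The margins were narrow. The highest co-cultured and lowest mono-cultured libraries were at 746 and 752 CPM for GAS5 and at 359.4 and 360.2 CPM for SNHG8. One read was worth 3.64 CPM in that mono-cultured SNHG8 library, which had FFAs, so its separation was under 1 read. The averaged difference of GAS5 was -0.24 (SE 0.084, limma, adjusted p = 0.628).

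With FFAs present the co-culture difference of GAS5 was -0.38 (SE 0.12, limma, adjusted p = 0.231) and 3 hosts passed an unadjusted p (14.7% of all genes). Without FFAs the smallest p was that of SNHG8 (-0.25, SE 0.14, limma, adjusted p = 1) and no host passed an unadjusted p (2.61%). None passed by edgeR in either (0.422% and 0.347% of all genes). SNHG8 had 359 CPM in both co-cultured libraries without FFAs and 420.1 and 433 CPM in the mono-cultured ones. Hepatocyte markers summed to 44848 to 63464 CPM in co-cultured HepG2 with FFAs and to 29352 to 40293 CPM in the other 3 groups, and the part of such shifts in the host values was not tested.

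Whether FFAs or co-culture acted differently on the hosts in the 2 lines was tested as a difference of differences over 16 libraries. No host passed by limma in either, against 0.0912% of all genes for FFAs and 0.0969% for co-culture. For FFAs, 1 host passed an unadjusted p (11.4% of all genes), SNHG1, with a difference of 0.66 in HepG2 relative to Caco-2 (SE 0.28, limma, adjusted p = 0.386). By edgeR 2 passed, SNHG5 with a log2 fold of -0.54 and SNHG6 with -0.60 (edgeR, adjusted p = 0.0280 and 0.0449), where 7.92% of all genes did. The limma differences of the same hosts were -0.26 and -0.40 (adjusted p = 0.553 and 0.485). For co-culture 0 hosts passed an unadjusted p (9.72%) or edgeR (2%), with SNHG12 first at -1.17 (SE 0.73, limma, adjusted p = 0.664).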

How the data were processed

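Gene tables of 16 Nanopore PCR-cDNA libraries of polyadenylated RNA were used. The deposited values were named TPM by the authors, but each library's values were whole multiples of 1 step and summed to nearly the same total, so they are CPM, with no division by gene length. With that step, 100% of values up to 1000 reads were within 0.1 of a whole read, and reads were recovered by rounding. The submitters' processing notes name minimap2 2.22 and GRCh38. The study's methods also describe other aligners, without saying for which libraries. The 10 hosts and the companion lists were chosen with earlier results of these data known.

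Log2(CPM + 1) was fitted with limma 3.58.1 (R 4.3.3, trended prior) to group means, for genes averaging 1 CPM or more in some group, per line and for both lines, with two-sided p adjusted by Benjamini-Hochberg over all genes at 0.05. By rule, statistics were given for the called hosts, at most the 4 with the smallest p, or with none called for the host with the smallest p. Those of other hosts were added after their values were seen. EdgeR 4.0.16 (quasi-likelihood) on recovered reads was an alternative. It called 389 genes for co-culture averaged in Caco-2 and 535 for FFAs averaged in HepG2. Companion genes were named by smallest p, at most 2 for each contrast, and snoRNAs by a group mean of 10 CPM. Positions are from GENCODE 44. No batch is given in the labels. One gene that overlaps a host is not reported here.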

Additional observations from a re-analysis of the deposited data

How the results depend on the processing

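Between the lines, 9 hosts were called under every alternative and with any library left out, except quantile normalization, which called 10. Within lines the limma count of 0 depended on the test, and the share of all genes called is given in parentheses. In Caco-2, co-culture averaged gave 3 by edgeR on recovered reads (8.47%), 2 with the replicate block (1.36%), 1 with genes of at least 10 CPM (4.97%) and 4 with the study's thresholds of p without adjustment and 1.2-fold (11.5%). Co-culture without FFAs gave 1 by edgeR (1.48%) and 2 with the study's thresholds (10.1%), and the 4 groups gave 1 with the replicate block (0.55%) and 2 with the study's thresholds (8.16%). In HepG2, by edgeR and with the study's thresholds, FFAs averaged gave 3 (13.3%) and 3 (13.5%), FFAs in co-culture 2 (7.99%) and 2 (15.9%), and the 4 groups 2 (8.76%) and 2 (12.2%), while with the study's thresholds co-culture with FFAs gave 3 (14.5%) and co-culture averaged 1 (7.42%). The difference between lines in the FFA effect gave 2 by edgeR (7.92%) and 1 with the study's thresholds (11.2%). The cause of these differences was not tested.

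Leaving out 1 library called no host in Caco-2. In HepG2 the counts ranged from 0 to 3 for FFAs averaged, 0 to 4 for FFAs in co-culture, 0 to 1 for FFAs in mono-culture, 0 to 1 for co-culture averaged, 0 to 2 for co-culture with FFAs, 0 to 1 for co-culture without FFAs, 0 to 3 among the 4 groups and 0 to 1 for the interaction. For both lines they ranged from 0 to 2 for the difference in FFA effect and 0 to 1 for that in co-culture effect. The counts above 0 came without HepG2 co-culture FFA replicate 1, which leaves the library of 49634 reads as its group and called 18% of all genes for FFAs in co-culture and 11.9% for FFAs averaged, or without HepG2 mono-culture control replicate 2, where SNHG15 was called on a single read and 2.09% to 4.1% of all genes passed.

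The labels do not say that a replicate number marks a shared experiment. Deviations of same-numbered libraries correlated at -0.017 to 0.032 over all genes tested, and for genes of at least 100 CPM at -0.017 to 0.29 among Caco-2 groups and at -0.10 to 0.12 among those of HepG2, so pairing was not established. With the replicate block in Caco-2, ZFAS1 and SNHG8 passed for co-culture averaged (limma, adjusted p = 0.00511 and 0.0391).

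Median-ratio rescaling moved the median of all genes for FFAs in HepG2 from -0.07 to -0.26 and that for co-culture in HepG2 from -0.09 to -0.20, and the host medians to -0.45 and -0.34. For co-culture in Caco-2, quantile normalization moved the median of all genes from 0.14 to 0.01 and edgeR to -0.0026, with host medians of -0.20 and -0.32. Over all genes, limma and edgeR called 5322 of 17544 and 3411 of 5101 tested between the lines, 70 and 389 for co-culture averaged in Caco-2 (210 with the replicate block) and 11 and 535 for FFAs averaged in HepG2. Between the lines 68 ribosomal protein genes were called, and 33 with a constant prior variance. Depth limits SNHG12 and SNHG15 in HepG2, which had 69 reads and 1 read in all.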
